A study of Mus musculus with 1931 samples.

Results

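The genes described here number 32 of the 20999 in the table and belong to the machinery that folds secreted and membrane proteins in the endoplasmic reticulum (ER) and to the unfolded protein response (UPR) that watches over it. They are given by name, in a list drawn up with earlier results of these data known, and all of them were found. By role they comprise 15 ER chaperones and folding enzymes, 6 genes of ER translocation, membrane stabilisation and ER-associated degradation (ERAD), 3 genes of UPR sensors and their transcription factor XBP1, and 8 genes of the stress arm around the transcription factors ATF4 and CHOP. Proteins that enter the ER are folded with the help of HSP70- and HSP90-type chaperones, lectins and disulfide isomerases, and those that fail are drawn back to the cytosol and degraded. When unfolded proteins accumulate, the sensors IRE1 (gene *Ern1*) and ATF6 raise chaperone and ERAD genes through XBP1 and cleaved ATF6. The sensor PERK slows translation and raises the protein ATF4 and, through it, *Ddit3* (CHOP), *Trib3* and *Chac1*. ATF4 also answers to amino acid shortage, so its targets are not particular to the ER. Extraembryonic endoderm is a secretory tissue that lays down basement membrane and exports carrier proteins.

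Single cells were measured by SMART-seq2, which reads the mRNA of 1 sorted cell along its length without molecular identifiers. The Rosette-to-Lumen stage embryoids (RtL-embryoids) were assembled from 3 mouse embryonic stem cell (ESC) lines. Kermit ESCs, with GFP under the *Oct3/4* control elements, make the Epi-like (epiblast) core, 5-Factor ESCs with doxycycline-inducible *Cdx2*, *Tfap2c*, *Eomes*, *Gata3* and *Ets2* make the ExE-like (extraembryonic ectoderm) part, and iGATA6 ESCs with mCherry and inducible *Gata6* make the VE-like (visceral endoderm) sphere. They were treated with 2 µg/ml doxycycline, which was withdrawn for the last day, and hand-picked, pooled and sorted onto plates 3, 4 and 5. In 2D, Kermit ESCs were kept in 2i/LIF medium (plate 7, no doxycycline listed), 5-Factor ESCs were converted to iTSC (plate 8) and iGATA6 ESCs to iXEN cells (plate 9) with the same doxycycline dose. Every group is thus 1 sample, and each lineage comes from 1 line carrying its own transgenes. Lineage, line, medium and sort gate cannot be told apart, and comparisons with ESCs also differ in the listed doxycycline. The 3 plates of the RtL-embryoids split 1 pool, and no test between groups was possible.

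Of 1931 wells, 1406 had a cell with 2500 or more genes above 0 and entered the comparison. Wells of the RtL-embryoids were grouped by plate column, with columns 1 to 8 as Epi-like, 9 to 16 as VE-like and 17 to 24 as ExE-like. Of the 1406 cells 22.3% were Epi-like, 22.4% VE-like, 25.1% ExE-like, 10.10% ESCs, 10.03% iTSC and 10.03% iXEN cells. Levels are given in TP10k, that is TPM, a length-corrected abundance of transcripts, rescaled so that each cell sums to 10000, and then averaged over the group with zeros counted. All 7 Epi, 9 VE and 8 ExE markers had their highest 3D mean in the block named after them. The median number of genes above 0 was 4823 to 5396 per cell in the 3D blocks and 8537 to 9093.5 in 2D, so shares of cells with a weak transcript are not comparable between 3D and 2D. The ExE-like block was the least uniform. Markers were scaled by dividing the log level of each by its mean in the block named after it. By these scaled markers, 38 of the ExE-like cells scored higher for Epi and 38 for VE genes, together 21.5% of the block. In the Epi-like block 7 cells and in the VE-like block 4 cells went against their block in this way. Parietal endoderm markers moved with the endoderm groups, with 6 of 9 highest in VE-like wells of the 3D blocks and a summed mean of 98.5 TP10k there against 2.14 in Epi-like wells, and 144.9 in iXEN against 7.97 in ESCs. Their marker *Thbd* stayed under 0.01 TP10k in every group. Fibroblast markers summed to at most 0.0478 TP10k in any group.

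Promoter letters of the ER stress response element (ERSE), the site through which ATF6 and XBP1 act on chaperone genes, are shown first, since this element is what links the folding genes to the UPR. In the 250 bases before the start sites that RefSeq gives for GRCm38.p6, 29 of the 32 genes had an entry. The letters CCAAT, then 9 free positions, then CCACG, on either strand, stood in 8 of these 29, and in 35 of all 27025 genes with an entry (0.13%). The 8 were *Hspa5*, *Hsp90b1*, *Calr*, *Canx*, *Pdia6*, *Dnajc3*, *Creld2* and *Syvn1*, and *Hsp90b1* held it at 2 places. The shorter ERSE-II letters, ATTGG and CCACG with 1 free position between them, stood in *Herpud1* and in 10 of all genes (0.037%). Sequences run 5′ to 3′ on the strand of the gene, and capitals mark the letters that the motif fixes. Where these read CGTGG and ATTGG, the element lies on the opposite strand.
*Hspa5* (chr2:34772020-34772048, + strand): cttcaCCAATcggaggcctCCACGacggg
*Hsp90b1*, distal copy (chr10:86705633-86705661, - strand): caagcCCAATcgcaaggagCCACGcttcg
*Hsp90b1*, proximal copy (chr10:86705528-86705556, - strand): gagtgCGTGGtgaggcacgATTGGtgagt
*Calr* (chr8:84847070-84847098, - strand): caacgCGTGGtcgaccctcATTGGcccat
*Dnajc3* (chr14:118937822-118937850, + strand): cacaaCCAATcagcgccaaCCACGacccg
*Syvn1* (chr19:6046527-6046555, + strand): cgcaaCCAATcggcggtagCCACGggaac
*Canx* (chr11:50325795-50325823, - strand): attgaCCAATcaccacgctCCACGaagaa
*Creld2* (chr15:88819515-88819543, + strand): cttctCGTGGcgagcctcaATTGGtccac
*Herpud1*, ERSE-II (chr8:94386368-94386396, + strand): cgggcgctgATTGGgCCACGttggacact

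The second element is the C/EBP-ATF response element, bound by ATF4 and CHOP with C/EBP partners, and it is shown because it is the element usually named for the stress arm. Its letters TGATGNAA, on either strand, stood in 5 of the 29 genes, of which *Atf3*, *Chac1*, *Asns* and *Nupr1* are 4 of the 8 stress arm genes and *Herpud1* belongs to ERAD, and in 3.91% of the 27025 genes. In 4 of the 5 the match read TTGCATCA on the strand of the gene, with the free position in lower case below. No gene among the 29 had the letters TGACGTGG of a further UPR element, which stood in 0.603% of all genes. These are matches of letters in a short window, not sites shown to be bound.
*Chac1* (chr2:119351039-119351066, + strand): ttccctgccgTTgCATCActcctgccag
*Atf3* (chr1:191183426-191183453, - strand): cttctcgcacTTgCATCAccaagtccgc
*Nupr1* (chr7:126625563-126625590, - strand): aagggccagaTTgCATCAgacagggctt
*Herpud1* (chr8:94386307-94386334, + strand): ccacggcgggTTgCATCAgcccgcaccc

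In VE-like wells 8 of the 15 ER folding genes were called higher than in Epi-like wells and none lower, led by *Calr* and *P4hb*. Of the 8 stress arm genes, 1 was called higher and 2 lower. A gene is called different when the log2 ratio of the 2 means, each plus 0.1, is at least 1 in size and has the same sign on each of the 3 plates. Against Epi-like wells, 17 of the 32 genes were called in VE-like wells, 15 higher and 2 lower. By the same rule 18.1% of the 8508 genes with a mean of at least 0.1 TP10k over the 6 groups were called, 10% higher and 8.12% lower. Of the 32, *Ern1* alone did not reach that mean.

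**Figure D1:**
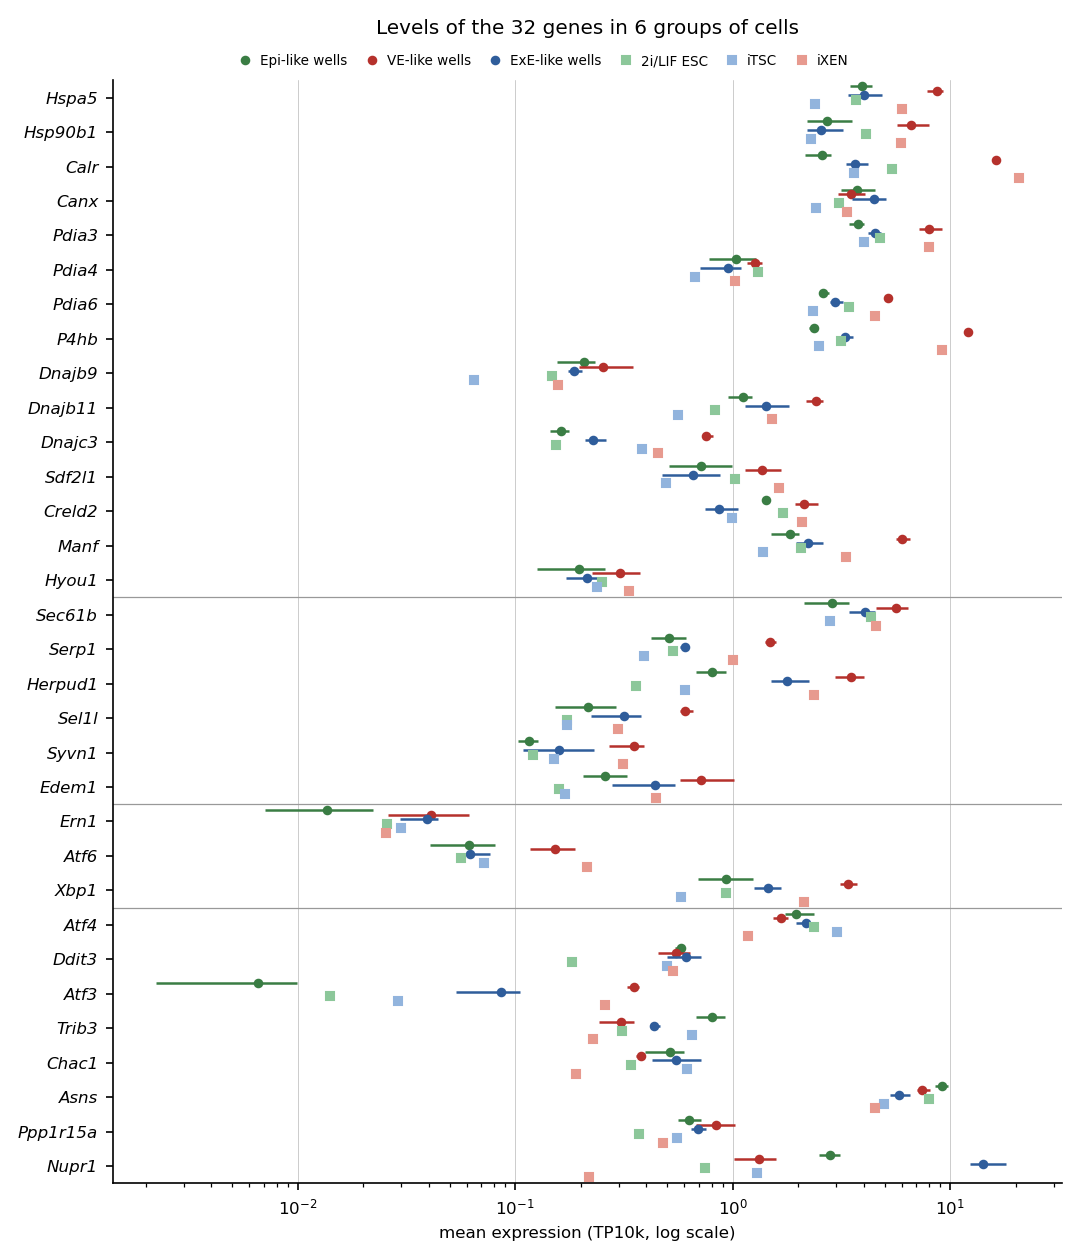
Mean level in TP10k (log axis) of each of the 32 genes in 6 groups. Points give the group mean and, for the 3D groups, lines span the means on plates 3, 4 and 5. From top to bottom, grey lines separate chaperones, translocation and ERAD, sensors with *Xbp1*, and the stress arm. In most folding genes VE-like wells and iXEN cells lie to the right, while *Nupr1* is highest in ExE-like wells, at 14.2 TP10k.

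The binding protein BiP, encoded by *Hspa5* (GRCm38, chr2:34771970-34777547), is the HSP70-type chaperone of the ER lumen and the classical readout of the UPR. Its means on plates 3, 4 and 5 were 9.03, 7.83 and 9.31 TP10k in VE-like wells, 3.97, 3.47 and 4.37 in Epi-like wells and 3.40, 3.80 and 4.85 in ExE-like wells. No plate of the other blocks reached the lowest VE-like plate. The log2 ratio was 1.13 over Epi-like wells (1.07 to 1.17 on single plates) and 1.10 over ExE-like wells. The latter dropped to 0.97, under the threshold, without plate 3. In 2D, *Hspa5* stood at 6.04 TP10k in iXEN, 3.71 in ESCs and 2.39 in iTSC. *Hsp90b1*, which encodes the HSP90-type chaperone GRP94, was also highest in VE-like wells in 3D. It averaged 6.62, 2.70 and 2.56 TP10k in VE-like, Epi-like and ExE-like wells.

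Calreticulin and protein disulfide isomerase gave the largest differences among the folding genes. *Calr* (chr8:84841850-84846934) encodes a lectin chaperone that binds calcium and monoglucosylated glycoproteins. It averaged 15.7, 16.3 and 16.9 TP10k on the VE-like plates, 2.75, 2.15 and 2.84 on the Epi-like and 3.33, 4.21 and 3.48 on the ExE-like plates. That is 6.11-fold over Epi-like and 4.35-fold over ExE-like wells on the scale with 0.1 added. *P4hb* (chr11:120560298-120573253) encodes a disulfide isomerase that is also the beta subunit of the prolyl 4-hydroxylase of collagen. It averaged 11.98, 12.04 and 12.11 TP10k on the VE-like plates, 2.38, 2.25 and 2.48 on the Epi-like and 3.21, 3.56 and 3.08 on the ExE-like plates. Both genes kept well apart on every plate.

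Calnexin did not follow calreticulin, although both are lectins of the same folding cycle and both carry an ERSE. *Canx* averaged 3.52, 3.72 and 4.47 TP10k in VE-like, Epi-like and ExE-like wells, and its plate ranges of 3.05 to 4.06, 3.15 to 4.50 and 3.53 to 5.06 overlapped. The log2 ratio of VE-like over Epi-like wells was -0.08 for *Canx* and 2.61 for *Calr*. In 2D the pair behaved alike, with a log2 ratio of iXEN over ESC of 0.12 for *Canx* and 1.91 for *Calr*.

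Among the other chaperones and folding enzymes, the isomerase gene *Pdia3* (8.04 against 3.76 TP10k, log2 1.08), the BiP co-chaperone genes *Dnajb11* (2.43 against 1.12, log2 1.05) and *Dnajc3* (0.751 against 0.163, log2 1.70) and the secreted ER stress factor *Manf* (5.99 against 1.84, log2 1.65) were called higher in VE-like than Epi-like wells. This made 8 of 15 higher and 0 lower, with a list median of 1.05 against -0.04 over all genes tested. The 7 that were not called were *Canx*, *Pdia4*, *Pdia6*, *Dnajb9*, *Sdf2l1*, *Creld2* and *Hyou1*. Of these, *Pdia6* (0.96) and *Sdf2l1* (0.85) lay just under the threshold and *Pdia4* (0.26), *Dnajb9* (0.20), *Hyou1* (0.45) and *Creld2* (0.55) further below. Of the 8 genes with an ERSE, 5 were among the called ones and *Canx*, *Pdia6* and *Creld2* were not, so genes with the element stood on both sides of the threshold.

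The genes of translocation and ERAD differed in the same direction. In VE-like wells 5 of 6 were called higher than in Epi-like wells, and the list median was 1.163. *Herpud1* (chr8:94386438-94395377), a membrane organiser of the ERAD complex, averaged 2.95, 3.63 and 4.01 TP10k on the VE-like, 0.808, 0.681 and 0.933 on the Epi-like and 1.496, 1.62 and 2.23 on the ExE-like plates. It was detected in 90.2% of VE-like cells (95% confidence interval, CI, 86.3% to 93.2%), in 46.5% (40.9% to 52.2%) of Epi-like and 70.5% (65.5% to 75.2%) of ExE-like cells. Intervals are exact Clopper-Pearson limits and cover counting error only. *Serp1*, which stabilises membrane proteins under stress, averaged 1.49 against 0.511 TP10k (log2 1.38). The ubiquitin ligase gene *Syvn1* (log2 1.06) and its partner *Sel1l* (1.15) fell to 0.96 and 0.94 without plate 4. *Edem1*, a lectin that hands misfolded glycoproteins to ERAD, gave a log2 ratio of 1.18, and 0.89 without plate 5. *Sec61b*, a subunit of the translocon, missed the threshold at 0.95.

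Of the UPR regulators, *Xbp1* (chr11:5520659-5525893) was the one called higher in VE-like wells. Its means were 3.36, 3.11 and 3.74 TP10k on the VE-like, 0.847, 0.692 and 1.24 on the Epi-like and 1.25, 1.47 and 1.66 on the ExE-like plates, and the VE-like plates did not overlap with the rest. The log2 ratios were 1.77 over Epi-like and 1.17 over ExE-like wells. Values summed per gene do not tell the spliced, active *Xbp1* mRNA from the unspliced one. *Atf6*, the gene of the Golgi-cleaved sensor, averaged 0.153, 0.0614 and 0.0622 TP10k in VE-like, Epi-like and ExE-like wells (log2 0.65 over Epi-like) and 0.214 in iXEN against 0.0564 in ESCs (log2 1.01). *Ern1*, which encodes the kinase and endonuclease that splices *Xbp1*, stayed under 0.05 TP10k in every group and was seen in 6.69% to 16.8% of cells in 3D.

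**Figure D2:**
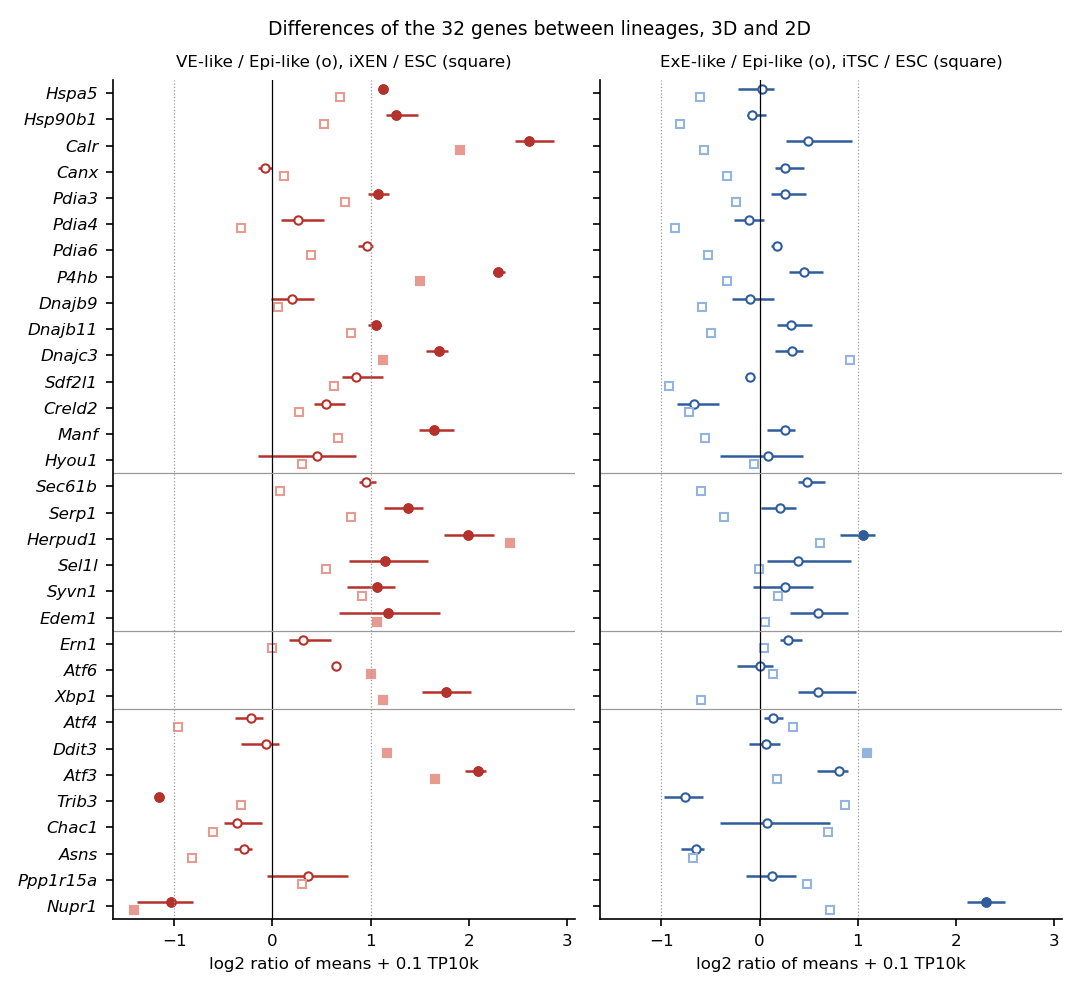
Log2 ratios of means plus 0.1 TP10k for the 32 genes. Left, VE-like over Epi-like wells (circles, lines span plates 3, 4 and 5) and iXEN over ESC (squares). Right, ExE-like over Epi-like wells and iTSC over ESC. Filled symbols are genes called, and dotted lines mark a log2 ratio of 1 in either direction. On the left 15 circles are called to the right, from *Calr* at 2.61 down, and on the right only *Herpud1* and *Nupr1*.

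Calls in the stress arm went in both directions. *Atf3*, an immediate stress response factor, was called higher in VE-like than Epi-like wells, *Trib3*, a pseudokinase induced by CHOP and ATF4, and *Nupr1*, a small stress-induced chromatin protein, were called lower, and 5 of 8 genes were not called. The list median was -0.26. Of this list 12.5% was called higher and 25% lower, beside 10% and 8.12% of all genes tested. *Atf3* (chr1:191170296-191218039) averaged 0.373, 0.327 and 0.362 TP10k on the VE-like plates and at most 0.00990 on any Epi-like plate, and was detected in 47.3% of VE-like (95% CI 41.7% to 52.98%), 1.59% of Epi-like (0.519% to 3.68%) and 11.6% of ExE-like cells (8.47% to 15.4%). *Trib3* averaged 0.317, 0.353 and 0.244 TP10k on the VE-like and 0.822, 0.923 and 0.677 on the Epi-like plates (log2 -1.16). It fell short of the threshold at -0.96 with a minimum of 4000 genes per cell and at -0.94 with means of log values.

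*Ddit3*, which encodes CHOP, the transcription factor of terminal ER stress, showed no separation between the blocks. Its means were 0.552, 0.582 and 0.613 TP10k in VE-like, Epi-like and ExE-like wells, with plate ranges of 0.455 to 0.638, 0.545 to 0.604 and 0.500 to 0.715. *Atf4* (1.67, 1.96 and 2.17 TP10k), *Chac1*, a glutathione-degrading enzyme (0.378, 0.515 and 0.547), and *Ppp1r15a*, the phosphatase subunit GADD34 that restarts translation (0.837, 0.632 and 0.696), were not called between any pair of 3D blocks. These are mRNA levels, and the amount of ATF4 protein was not measured. *Asns*, asparagine synthetase, was the most abundant gene of the arm in Epi-like wells at 9.17 TP10k. It averaged 7.47 in VE-like and 5.82 in ExE-like wells. Cells with *Ddit3*, *Trib3* and *Chac1* all detected made up 12.4% of Epi-like (95% CI 8.98% to 16.6%), 12.4% of VE-like (8.95% to 16.5%) and 10.5% of ExE-like cells (7.49% to 14.2%).

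*Nupr1* (chr7:126623249-126630861) set the ExE-like wells apart. It averaged 12.34, 12.35 and 18.04 TP10k on the ExE-like plates, 2.79, 2.51 and 3.11 on the Epi-like and 1.01, 1.39 and 1.58 on the VE-like plates. The quartiles over ExE-like cells were 2.61, 7.66 and 19.6 TP10k and the highest cell reached 138.04, so the level varied widely within the block. The log2 ratio was 2.30 over Epi-like wells, and -3.33 for VE-like over ExE-like wells. Leaving out the cells whose scaled markers went against their block gave 2.35 and -3.43. The lower level in VE-like than Epi-like wells (log2 -1.03) came to -0.88 without plate 3.

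Apart from *Nupr1*, few of the 32 genes reached the threshold between ExE-like and Epi-like wells. By the same rule 2 of 32 genes were called, both higher, against 11.2% of all genes tested, of which 7.19% were higher and 4% lower. The second was *Herpud1* (log2 1.05), which lost its call at 0.98 without plate 5 and at 0.90 without the cells whose scaled markers went against their block. None of the 15 chaperones was called, and their median was 0.18. Smaller shifts of sums held on each plate. The translocation and ERAD sum was 1.54-fold that of Epi-like wells (1.43 to 1.68 on single plates). The sum of sensors with *Xbp1* was 1.55-fold (1.32 to 2.08), and the stress arm sum without *Nupr1* was 0.76-fold (0.70 to 0.81). Against ExE-like wells, VE-like wells had 11 genes called, 10 higher and 1 lower, against 11.3% of all genes tested, of which 4.94% were higher and 6.35% lower. The higher ones were *Hspa5*, *Hsp90b1*, *Calr*, *P4hb*, *Dnajc3*, *Creld2*, *Manf*, *Serp1*, *Xbp1* and *Atf3*, the last at 0.95 with means of log values. The comparisons with Epi-like and with ExE-like wells use the same VE-like cells.

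Summed per cell, the 2 arms also ordered the groups differently. Summed over the 15 chaperone genes, the mean per cell was 74.9 TP10k in VE-like wells (71.9 to 78.6 on single plates), 28.4 in Epi-like (25.5 to 31.6) and 32.2 in ExE-like wells (30.8 to 34.8). In 2D it was 68.3 in iXEN, 35.2 in ESCs and 24.4 in iTSC. *Calr* and *P4hb*, abundant genes with large differences, weigh heavily in these chaperone sums, which were not recomputed without them. In VE-like wells 10% of cells lay below 46.1 TP10k, and in Epi-like wells 10% lay above 40.5, so the bulk of the cells did not overlap. The sum of the 8 stress arm genes ran in another order, with 12.9, 16.5 and 24.5 TP10k in VE-like, Epi-like and ExE-like wells, and 7.58 in iXEN, 12.4 in ESCs and 11.7 in iTSC. Without *Nupr1* the 3D stress sums were 11.6, 13.7 and 10.4 TP10k, so the lead of the ExE-like wells rested on that gene. Without *Asns* as well they were 4.10, 4.51 and 4.54 TP10k, and the plate ranges of the 3 blocks overlapped. In 2D the sums without both genes were 2.86 TP10k in iXEN, 3.59 in ESCs and 5.38 in iTSC, so iTSC then stood above ESCs.

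**Figure D3:**
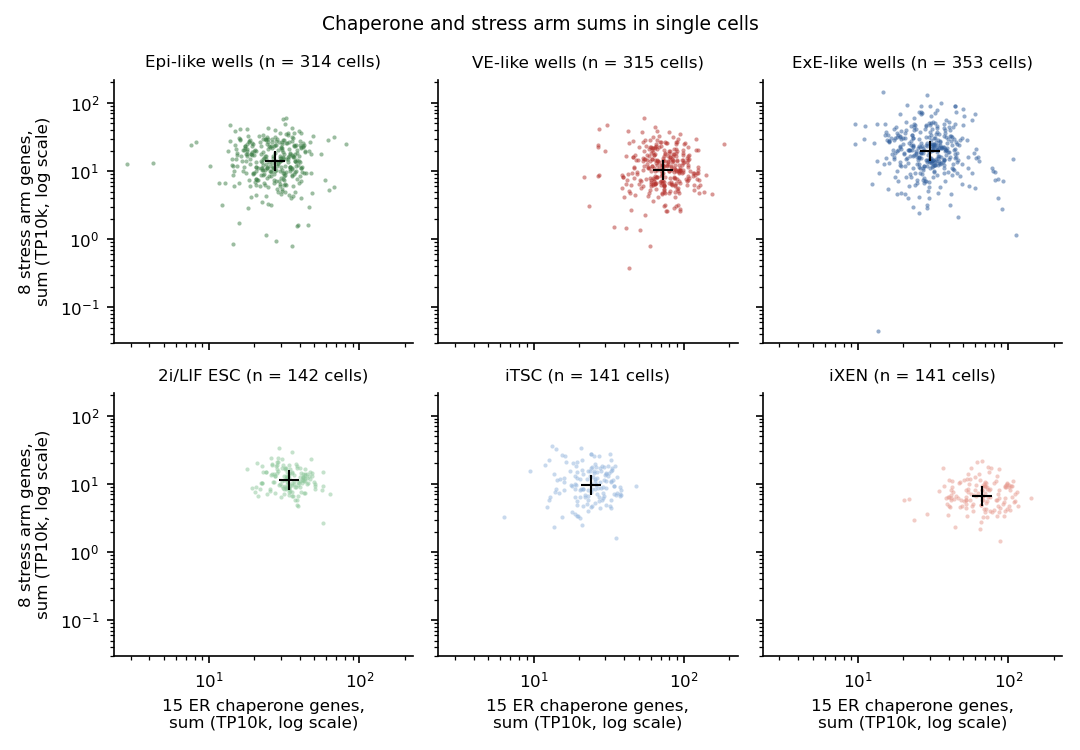
Sum of the 15 ER chaperone genes (x axis) and of the 8 stress arm genes (y axis) in each kept cell, in TP10k on log axes, for the 6 groups. Each point is a cell, and the cross marks the group's medians. VE-like wells (median 72.95) and iXEN cells (67.1) are shifted to the right on the chaperone axis, and ExE-like wells lie highest on the stress axis (median 19.6).

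Across the cells of a group, several leading genes of each arm varied together, while the sums of the arms hardly did. These are Spearman correlations over cells of 1 sample, which share library plate and depth, and are given as descriptions. *Hspa5* and *Hsp90b1* gave 0.41 in VE-like, 0.33 in Epi-like, 0.36 in ExE-like cells, 0.47 in ESCs, 0.36 in iTSC and 0.60 in iXEN cells. *Hspa5* and *Manf* gave 0.55 in VE-like and 0.69 in iXEN cells, and 0.25 to 0.44 in the other 4 groups. *Trib3* and *Chac1* gave 0.40 to 0.52 in the 6 groups, and *Trib3* and *Atf4* 0.27 to 0.62. By contrast the chaperone sum and the stress arm sum without *Nupr1* gave -0.14 to 0.05, and *Hspa5* with *Ddit3* -0.12 to -0.01. *Hspa5* with *Asns* was higher in the endoderm groups, at 0.22 in VE-like and 0.26 in iXEN cells against 0.01 to 0.13 in the other 4. Over all pairs of chaperone genes the median was highest in iXEN cells, at 0.35, and 0.08 to 0.18 in the other groups. Over all pairs of stress arm genes the median was 0.11 to 0.26 in the 6 groups. Pairs of a chaperone with a stress arm gene had medians of -0.037 to 0.0013. The chaperone sum and the number of genes above 0, the measure of depth, gave -0.07 to 0.12. With the parietal endoderm marker sum it gave -0.01 in VE-like cells (plates from -0.11 to 0.18), 0.03 in Epi-like, 0.15 in ExE-like and 0.15 in iXEN cells, 0.32 in ESCs and 0.31 in iTSC.

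In ExE-like cells *Nupr1* hardly varied with *Trib3* and *Asns*. With *Trib3* it gave 0.34 to 0.52 in the other 5 groups and -0.02 there (plates from -0.07 to 0.05), and with *Asns* 0.36 to 0.51 against -0.11 (-0.22 to 0.03). *Trib3* and *Asns* themselves gave 0.49 in ExE-like cells, above the 0.22 to 0.48 of the other groups. With *Ddit3*, *Nupr1* gave 0.21 in ExE-like cells, within the range of 0.15 to 0.44 elsewhere.

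In 2D part of the endoderm pattern was also seen, mostly at a smaller size. Between iXEN and ESC 10 of 32 genes were called, 9 higher and 1 lower, against 20.4% of the genes tested, of which 12.2% were higher and 8.25% lower. The higher ones were *Calr* (log2 1.91), *P4hb* (1.504), *Dnajc3* (1.13), *Herpud1* (2.42), *Edem1* (1.06), *Atf6* (1.01), *Xbp1* (1.12), *Ddit3* (1.163) and *Atf3* (1.65), and *Nupr1* was lower (-1.41). With means of log values *Ddit3* (0.70), *Atf6* (0.95) and *Edem1* (0.97) lost their calls, and in cells with 6000 to 8500 genes above 0 *Ddit3* (0.93) and *Dnajc3* (0.94) did. With plain means the share of the 32 genes called was above the background, and means of log values gave 7 calls. Of the 15 chaperone genes 3 were called higher (20%) and 0 lower, with a median of 0.63. *Hspa5* (0.69), *Hsp90b1* (0.53), *Manf* (0.66) and *Pdia3* (0.74) stayed under the threshold. Of the 10 calls, *Calr*, *P4hb*, *Dnajc3*, *Herpud1*, *Edem1*, *Xbp1* and *Atf3* were higher and *Nupr1* lower in both VE-like over Epi-like wells and iXEN over ESC. These are 8 of the 17 called in 3D (47.1%) and 8 of the 10 called in 2D (80%). Over all genes tested, 63.97% of the 3D calls and 56.8% of the 2D calls were shared in this way. Among the 32 genes the share was thus lower than the background for 3D calls and higher for 2D calls. None was called in opposite directions. The sign agreed in 28 of 32 genes and in 6590 of 8508 genes tested.

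Against iTSC, iXEN cells differed in 16 of the 32 genes, 12 higher and 4 lower, beside 14.8% of all genes tested, 7.44% higher and 7.31% lower. *Hspa5* (6.04 against 2.39 TP10k), *Hsp90b1* (5.96 against 2.29), *Calr* (20.7 against 3.63), *P4hb* (9.16 against 2.49), *Dnajb11*, *Sdf2l1*, *Manf*, *Serp1*, *Herpud1*, *Edem1*, *Xbp1* and *Atf3* were higher. The 4 lower genes all belong to the stress arm, namely *Atf4* (1.17 against 3.02 TP10k), *Trib3* (0.229 against 0.654), *Chac1* (0.191 against 0.620) and *Nupr1* (0.220 against 1.30). *Trib3*, *Chac1* and *Edem1* lost their calls with means of log values, at -0.99, -0.87 and 0.95, and *Edem1* also with a minimum of 4000 genes per cell, just under 1. Between iTSC and ESC 1 gene was called, beside 12.7% of the genes tested, 8.27% higher and 4.42% lower. This was *Ddit3*, with 0.501 against 0.182 TP10k (log2 1.09), or 0.49 with means of log values. In that comparison 14 of 15 chaperones lay below 0, with a median of -0.55, and none was called.

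3D and 2D cells of the same lineage were compared across different plates, so that culture, medium and plate cannot be told apart. Between Epi-like wells and ESCs the listed doxycycline differs as well. VE-like wells against iXEN gave 1 call of 32, beside 3.5% of all genes tested (1.25% higher, 2.26% lower), for *Nupr1* (1.32 against 0.220 TP10k, log2 2.15). The chaperone median was 0.19 and the ratio of the chaperone sums 1.10. Epi-like wells against ESC gave 4 calls, beside 6.08% of all genes tested, 3.34% higher and 2.74% lower. *Calr* was lower (2.58 against 5.43 TP10k, log2 -1.05, and -0.93 without plate 4), and *Ddit3* (0.582 against 0.182), *Trib3* (0.807 against 0.312) and *Nupr1* (2.80 against 0.750) were higher. Here *Ddit3* was detected in 30.6% of Epi-like cells and 60.6% of ESCs, and *Trib3* in 56.1% and 78.2%, at the unequal depths given above. At those depths the shares cannot tell whether fewer Epi-like cells express the 2 genes. With means of log values the log2 difference was 0.11 for *Ddit3* and 0.38 for *Trib3*. Among cells with 6000 to 8500 genes above 0, 33 Epi-like and 20 ESCs, the log2 ratios were 1.02 and 1.80.

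ExE-like wells against iTSC gave 5 calls of 32, all higher, beside 8.78% of all genes tested, 4.9% higher and 3.88% lower. They were *Dnajb11* (1.42 against 0.562 TP10k), *Herpud1* (1.78 against 0.603), *Edem1* (0.441 against 0.169), *Xbp1* (1.45 against 0.578) and *Nupr1*, at a log2 ratio of 3.35. The ratio of the chaperone sums was 1.32, and that of the translocation and ERAD sums 1.71. *Edem1* lost its call without plate 4, at 0.91, and without plate 5, at 0.88. Means of log values left *Nupr1* as the call, with *Dnajb11* at 0.84, *Herpud1* at 0.90, *Edem1* at 0.29 and *Xbp1* at 0.69.

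The wider secretory pathway, from lists written for this purpose, had more genes called higher than lower in VE-like over Epi-like wells and in iXEN over ESC. Counts are over every gene of a list found in the table, whatever its level. Of 28 genes of ER to Golgi transport, 17 were called higher and 0 lower in VE-like than Epi-like wells, with a median of 1.07. Among them were *Kdelr3* (4.37 against 0.328 TP10k), a receptor that returns chaperones such as BiP to the ER, the cargo receptor gene *Surf4* (3.05 against 0.753) and *Tmed3* (0.858 against 0.167). Of 14 genes of collagen folding and modification, 11 were higher and 0 lower, with a median of 1.68, led by the prolyl hydroxylase subunit gene *P4ha2* (4.09 against 0.182 TP10k), *Serpinh1* (5.58 against 0.337), which encodes the collagen chaperone HSP47, and *P4ha1* (1.93 against 0.236). *P4ha1* and *P4ha2* encode alpha subunits that join the *P4hb* product. Of 30 further ER folding genes 11 were higher and 0 lower (*Fkbp11*, *Pdia5* and *Erp29* first), of 27 genes of translocation and glycosylation 9 and 0 (*Ssr4*, *Dad1* and *Sec61a1* first), and of 18 further ERAD genes 4 and 0 (*Selenos*, *Ube2j1* and *Derl1* first). In iXEN over ESC the same 5 lists had 7 of 28, 8 of 14, 11 of 30, 6 of 27 and 3 of 18 genes higher and none lower, where 12.2% of all genes tested were higher, so the ERAD list lay near the background. In ExE-like over Epi-like wells they had 2, 0, 1, 0 and 1 higher and 0, 0, 0, 1 and 1 lower. In VE-like over ExE-like wells the 5 lists had 4, 10, 6, 1 and 0 higher and none lower, where 4.94% of all genes tested were higher. There the lists of translocation and glycosylation (3.70% higher) and of ERAD did not exceed the background. In iXEN over iTSC they had 7, 9, 8, 5 and 2 higher and none lower, where 7.44% of all genes tested were higher.

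**Figure D4:**
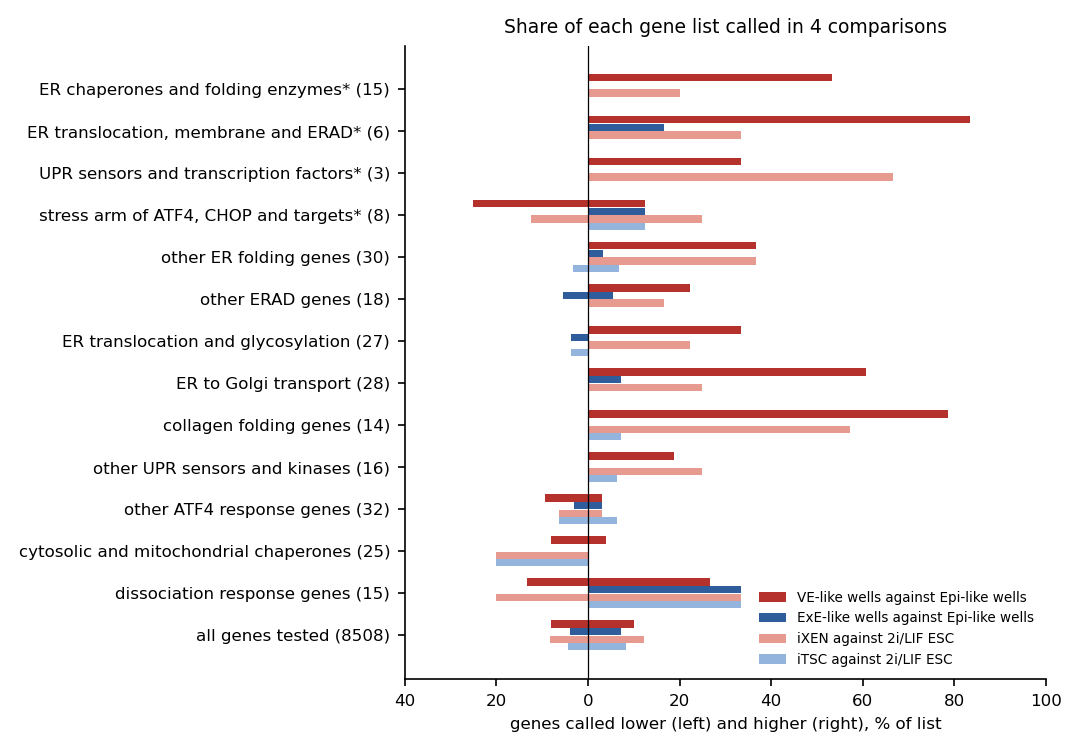
Share of each gene list called higher (bars to the right) or lower (bars to the left) in 4 comparisons, in percent of the list, with the number of genes in brackets and the 32 genes' own lists marked by an asterisk. All genes tested stand last as background, with 10% higher and 8.12% lower in VE-like against Epi-like wells. ER to Golgi transport (17 of 28) and collagen folding (11 of 14) reach furthest to the right beside the ER lists.

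The further ATF4 response genes and the cytosolic and mitochondrial chaperones showed no such excess of higher genes. Of 32 further genes of the ATF4 response, 1 was called higher and 3 lower in VE-like than Epi-like wells, with a median of -0.11. Here *Cth*, an enzyme of cysteine synthesis, averaged 0.102 against 2.24 TP10k (log2 -3.53), and *Soat2*, a sterol esterifying enzyme, 0.824 against 0.0365. Of 25 cytosolic and mitochondrial chaperones, 1 was higher and 2 lower, with a median of -0.41. Their sum stood at 187.2, 253.6 and 193.1 TP10k in VE-like, Epi-like and ExE-like wells, and *Hsp90aa1*, the inducible cytosolic HSP90, averaged 14.4 in VE-like against 36.3 TP10k in Epi-like wells. Thus *Hsp90aa1* ran opposite to *Hsp90b1*, while the other cytosolic HSP90 gene of the list was not called. Of 16 other UPR sensor and kinase genes 3 were higher and 0 lower, all of the CREB3 family of membrane-bound factors, *Creb3l2* (0.302 against 0.0164 TP10k), *Creb3* (2.26 against 0.653) and *Creb3l1* (0.303 against 0.0837). The share of this list called higher was 18.75%, beside 10% of all genes tested.

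Cells were detached with an enzyme before sorting, and *Atf3* and *Ppp1r15a* are also genes of the immediate response to such handling. Of 15 other genes of that response, 4 were higher and 2 lower in VE-like than Epi-like wells, with *Junb* at 0.460 against 0.0582 TP10k and *Dusp1* at 0.150 against 0.99998. Between iTSC and ESC, where *Ddit3* was called, 5 were higher and 0 lower, with *Fos* at 0.966 against 0.0533 TP10k. The part of this response in the values of *Atf3* and *Ddit3* was not tested.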

How the data were processed

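The authors quantified SMART-seq2 reads by kallisto pseudoalignment (mouse GRCm38, annotation Gencode vM16), summed transcripts per gene with tximport, filtered mitochondrial, ribosomal and pseudogenes, and deposited TPM values for 20999 genes in 1931 wells. Of these wells, 39 held no values. TPM keep no read number, so depth was taken as the number of genes above 0, and the deposited TPM summed to 108692 to 782286 per kept cell. From there, values were rescaled to 10000 per cell (TP10k) and averaged with Python 3.11.15, numpy 2.4.6, scipy 1.17.1 and pandas 2.3.3. With 1 sample per group no p-value was computed, and no doublet caller was run, since wells were sorted for 1 cell. The call rule was tested on simulated data, random splits of the Epi-like wells with 200 of 7690 genes changed 4-fold. It called 98% of the raised, 74% of the lowered and 0.174% of the unchanged genes. Changes smaller than 4-fold were not simulated, so the recovery of genes near the threshold was not tested. The wells compared came from the same block, so the share of unchanged genes called includes no difference of line, medium or sort gate. That share is therefore not an error rate for the comparisons between groups. The 32 genes and the gene lists were chosen with earlier results of these data known. All 32 could be named, and of each other list up to 3 called genes per direction with the largest log2 ratio. *Rpn1* and *Rpn2*, on one list, were not analysed here. A further gene of the ERAD list is not reported here. The groups of wells by plate column come from the choice of comparison and were checked by markers, as the labels do not name the lineage of a 3D well. Gene positions are from Gencode vM21 (GRCm38) and promoters from RefSeq (GRCm38.p6). For 22 of the 29 promoters the bases after the start were found in a Gencode transcript of the gene on the given strand, and for 0 on the other. The alternatives were other minima of genes per cell, pseudocounts, means of log values, TPM as deposited, no filter on low values, leaving out each plate, cells of a shared range of genes, and cells left out whose markers go against their block.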

Additional observations from a re-analysis of the deposited data

How the results depend on the processing

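Of the recomputed counts of called genes, 21 (20.6%) differed from the reported one by more than 1.5 times. A pseudocount of 1 TP10k, which shrinks every ratio, moved 9 of them, to 6 called genes for VE-like against Epi-like wells, 1 for ExE-like against Epi-like, 5 for VE-like against ExE-like, 3 for iXEN against ESC, 0 for iTSC against ESC, 5 for iXEN against iTSC, 1 for Epi-like against ESC, 0 for VE-like against iXEN and 1 for ExE-like against iTSC. A pseudocount of 0.01 gave 4 for ExE-like against Epi-like and 5 for iTSC against ESC. The count of 2 for ExE-like against Epi-like wells became 1 with a minimum of 4000 genes per cell, without plate 5, and without cells whose markers went against their block, by either marker rule. The planned rule was led by the abundant *Dppa5a* and marked 19.7% of 3D cells, and the scaled rule, added after seeing the data, marked 8.86%. For iTSC against ESC the count of 1 became 3 with means of log values (0 higher, 3 lower), 2 with TPM as deposited and 4 in cells with 6000 to 8500 genes, and for ExE-like against iTSC the count of 5 became 1 with means of log values and 3 in that range, where VE-like against iXEN gave 2. The causes were not tested. In that range Epi-like wells had 33 cells, from plate 3 only, and ESCs 20. Means of log values turned the split of Epi-like against ESC from 3 higher and 1 lower to 1 higher and 4 lower. For VE-like against Epi-like wells the count was 15 to 20 under the alternatives other than a pseudocount of 1, and for iXEN against ESC 7 to 12. Of the recomputed values of called genes, 88.99% kept their call, 81 values lost it and 0 changed sign, and 62 values of genes not called passed the threshold. No paired analysis was possible because every group is 1 sample. Without read numbers, the weak *Ern1*, *Atf6*, *Dnajb9* and *Syvn1* are the least certain.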
